A study of Homo sapiens with 15 samples.

Results

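The 38 genes described here are the enzymes and transporters of glycolysis together with the oxygen-sensing genes and the hypoxia-induced genes that go with them. They were chosen by name, for their function, but with earlier results of these data known. They make up 38 of the 26475 genes in the count table. All 38 were found by symbol, and 37 of them had enough counts to be tested among the 12795 genes tested. ANKRD37, an ankyrin-repeat gene induced by low oxygen, had 112 counts over the 15 libraries and was not tested.

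Glycolysis takes up glucose through facilitative carriers, traps it by phosphorylation, splits it into triose phosphates and ends in pyruvate, which is either oxidised in mitochondria or reduced to lactate and exported. The hypoxia-inducible factors are pairs of an oxygen-labile alpha subunit (HIF1A or EPAS1) and a stable beta subunit. When oxygen is present, prolyl hydroxylases of the EGLN family mark the alpha subunits for destruction by the VHL ubiquitin ligase. When it is not, the factors bind short DNA elements and raise the transcription of glucose carriers, glycolytic enzymes, lactate export, pH control and vessel growth genes. HIF1A is therefore controlled mainly at the protein level, so a transcript level says little of the activity of the factor. Tumour lines such as A549 carry out much of their glucose use by glycolysis even in oxygen.

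The study measured RNA in A549, an established human line from a lung adenocarcinoma that its submitters call similar to alveolar type II cells. It had 5 groups of 3 libraries each: untreated cells, cells given 10 ng/ml of the type 2 cytokine IL4, and IL4 with Compound A, with control siRNA or with 1 uM of a pool of siRNA against ALOX15, the 15-lipoxygenase that IL4 induces. All groups were cultured for 48 hours in the same medium with serum. The identity and dose of Compound A, the dose of the control siRNA and any vehicle or mock treatment of the untreated and IL4 groups are not given in the sources used here. A549 is 1 line, and nothing in the labels says that the 3 libraries of a group came from separate cultures or days, so the p-values measure the spread between these libraries only. No group was cultured at low oxygen, as far as the labels say.

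The promoters of 6 of the genes are shown because the genes changed with IL4 in different roles (SLC2A1, PFKP, PFKFB4, EGLN3 and CA9) or did not pass the test with IL4 although hypoxia-response cores are dense in the window (LDHA). Each is the RefSeq sequence of build GRCh38.p14 from 250 bases before to 50 bases after the gene start, read 5′ to 3′ on the strand of the gene, and capitals mark every match on either strand to the cores ACGTG or GCGTG. The start is the one the RefSeq table gives, and for all 6 genes it differs from the outer bound of the GENCODE 29 gene printed with the values, most for EGLN3, whose GENCODE gene begins far upstream of the window. The windows lie at chr1:42958819-42959118 on the minus strand for SLC2A1, chr10:3067720-3068019 on the plus strand for PFKP and chr3:48556754-48557053 on the minus strand for PFKFB4. They lie at chr14:33951025-33951324 on the minus strand for EGLN3, chr9:35673678-35673977 on the plus strand for CA9 and chr11:18394313-18394612 on the plus strand for LDHA.
SLC2A1: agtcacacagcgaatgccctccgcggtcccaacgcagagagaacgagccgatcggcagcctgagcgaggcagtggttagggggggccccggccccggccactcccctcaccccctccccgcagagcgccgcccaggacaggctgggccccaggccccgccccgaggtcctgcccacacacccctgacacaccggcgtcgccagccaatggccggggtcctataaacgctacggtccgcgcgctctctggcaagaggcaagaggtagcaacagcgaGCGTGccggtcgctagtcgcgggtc
PFKP: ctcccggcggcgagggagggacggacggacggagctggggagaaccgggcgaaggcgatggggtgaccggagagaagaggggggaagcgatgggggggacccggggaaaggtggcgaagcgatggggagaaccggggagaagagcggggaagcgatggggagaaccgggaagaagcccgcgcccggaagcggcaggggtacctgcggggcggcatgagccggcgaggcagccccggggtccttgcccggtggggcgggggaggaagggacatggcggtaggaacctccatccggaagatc
PFKFB4: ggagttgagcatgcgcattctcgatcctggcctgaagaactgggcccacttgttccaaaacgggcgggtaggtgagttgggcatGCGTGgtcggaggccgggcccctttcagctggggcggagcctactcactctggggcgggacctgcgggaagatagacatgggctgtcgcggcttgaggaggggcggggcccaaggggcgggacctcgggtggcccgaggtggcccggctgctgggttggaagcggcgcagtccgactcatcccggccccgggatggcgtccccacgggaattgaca
EGLN3: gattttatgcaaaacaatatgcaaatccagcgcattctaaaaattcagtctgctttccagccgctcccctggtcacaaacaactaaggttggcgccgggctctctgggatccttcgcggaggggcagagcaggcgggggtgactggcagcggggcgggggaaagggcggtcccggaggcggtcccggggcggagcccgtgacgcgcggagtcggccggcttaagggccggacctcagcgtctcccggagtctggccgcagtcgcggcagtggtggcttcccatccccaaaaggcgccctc
CA9: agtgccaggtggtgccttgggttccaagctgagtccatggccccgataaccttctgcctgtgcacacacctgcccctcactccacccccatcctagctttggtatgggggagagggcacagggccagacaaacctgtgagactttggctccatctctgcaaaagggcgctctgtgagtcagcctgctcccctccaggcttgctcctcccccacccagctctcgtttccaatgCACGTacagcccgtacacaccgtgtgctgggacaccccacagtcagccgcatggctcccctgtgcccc
LDHA: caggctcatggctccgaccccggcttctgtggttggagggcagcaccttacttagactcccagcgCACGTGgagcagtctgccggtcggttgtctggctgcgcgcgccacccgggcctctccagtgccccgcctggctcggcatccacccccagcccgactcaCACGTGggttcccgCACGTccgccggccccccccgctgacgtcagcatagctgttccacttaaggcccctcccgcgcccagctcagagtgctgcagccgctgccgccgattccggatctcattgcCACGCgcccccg

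A window was found for 33 of the 38 genes, and none was used for SLC2A3, VEGFA, BNIP3L, NDRG1 and STC1. ACGTG was present in 14 of the 33 windows (42.4%) and in 21.6% of all 27305 windows of the same length. GCGTG was present in 17 of 33 (51.5%) and in 36.3% of all. The palindrome CACGTG holds ACGTG on each strand, so it counts on both. LDHA had 5 matches to ACGTG and 1 to GCGTG, the CA9 window had 1 ACGTG, and the SLC2A1 and PFKFB4 windows had 1 GCGTG each. PFKP and EGLN3 had none. The palindrome of TTC and GAA with any 4 bases between, the spacing that STAT6 favours, was in 0 of 33 windows and 6.37% of all windows, and the form with 3 bases between was in 1 of 33 (PDK1) and 7.88% of all. These matches describe letters within 300 bases, and nothing follows from them about binding.

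Total estimated counts ranged from 6407936 to 11031246 per library, with a median of 7442934, and all libraries were sequenced in the same lane per the labels. ALOX15 was at 0, 0.110 and 0.299 CPM (counts per 1000000 counts of the library, scaled between libraries by TMM) in untreated cells and at 6.00, 4.72 and 5.09 CPM with IL4. It was at 2.59, 2.23 and 1.81 CPM with Compound A, at 3.91, 3.56 and 3.25 CPM with control siRNA, and at 0.136, 0.314 and 0.319 CPM with ALOX15 siRNA, below every other IL4-treated library. Of the 10 epithelial markers all were detected in every group, while 7 of 9 alveolar type II markers were under 1 CPM in every group and the surfactant gene SFTPB was at 0 in every library. Summed levels of 18 markers of other cell types were 35.9 to 36.7 CPM in untreated cells, 41.3 to 50.5 CPM with IL4 and 27.3 to 35.1 CPM with Compound A, with PTPRC, CD3E and SCGB1A1 at 0 in every library. They were 34.4 to 41.2 CPM with control siRNA and 35.1 to 43.3 CPM with ALOX15 siRNA. Their part in the results below was not tested, and in bulk RNA fewer cells of a type cannot be told apart from less RNA per cell.

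A trend with GC content set 1 library apart. Counts in IL4 replicate 1 rose with the GC content of the transcript: its fitted deviation from the mean of all libraries was 0.65 higher on the log2 scale at 62.0% GC than at 39.3% GC, the 90th and 10th percentiles of the tested genes. In the other 14 libraries that difference lay between -0.21 and 0.20. The members have a median GC content of 53.3%, against 49.1% over the tested genes, and 25 of the 38 lie above that median. They run from HIF1A at 37.2% to the lactate exporter SLC16A3 at 64.5%. The comparisons with the IL4 group shifted with GC. Over all tested genes the median log2 change from IL4 ran from -0.16 at the lowest GC content (31.8 to 41.7%, 2436 genes) to 0.13 at the highest (58.6 to 74.5%, 2436 genes). With Compound A against IL4 it ran from 0.15 to -0.20. Comparisons that leave out the IL4 group shifted the same way by less. With Compound A against control siRNA the medians ran from 0.08 to -0.11, and with IL4 and control siRNA against untreated from -0.09 to 0.05. The counts of members that passed are therefore given also without IL4 replicate 1 and with GC content fitted out of every library. Shares of all tested genes are given only for the fit of all libraries without GC correction. Whether a move in a count under another setting is particular to the members was not tested.

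**Figure D1:**
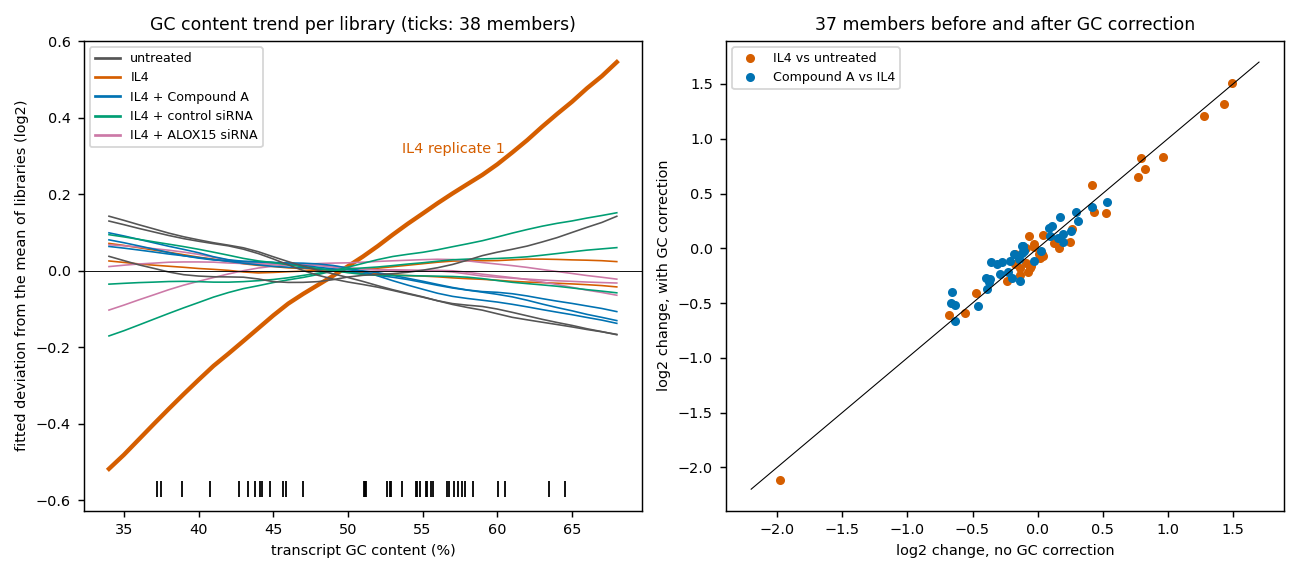
The left panel plots the fitted deviation of each of the 15 libraries from the mean of all libraries (log2) against transcript GC content (percent), with ticks at the GC content of the 38 members; IL4 replicate 1 rises by 0.65 between the 10th and 90th percentiles and the others lie between -0.21 and 0.20. The right panel plots the log2 change of each of the 37 tested members without and with GC correction for IL4 against untreated and for Compound A against IL4, with the line of equality.

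Levels between genes were compared per kilobase of transcript (the median length of the RefSeq-matched transcripts of each gene). The enzymes of the later steps led: GAPDH, the dehydrogenase of triose phosphate, had 2595 CPM per kb in untreated cells, followed by pyruvate kinase PKM, enolase ENO1 and lactate dehydrogenase LDHA at 1346, 1060 and 888 CPM per kb. Among genes of oxygen sensing, HIF1A had 214, EPAS1 97.9, EGLN1 61.9 and EGLN3 5.98 CPM per kb. The lowest members in untreated cells were hexokinase HK2, the aldolase ALDOC and ANKRD37, at 0.57, 0.77 and 0.82 CPM per kb. HK1 made up 98.5% of the message of HK1 and HK2 together in these cells. That share leaves out HKDC1, a hexokinase-like enzyme that is not a member. HKDC1 had 27855 counts over the 15 libraries, against 31136 for HK1. Values for SLC2A3, PGAM1 and ENO1 include counts that the authors' estimation split with other genes, since they were not whole in 10, 6 and 15 libraries, and are uncertain to that extent.

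**Figure D2:**
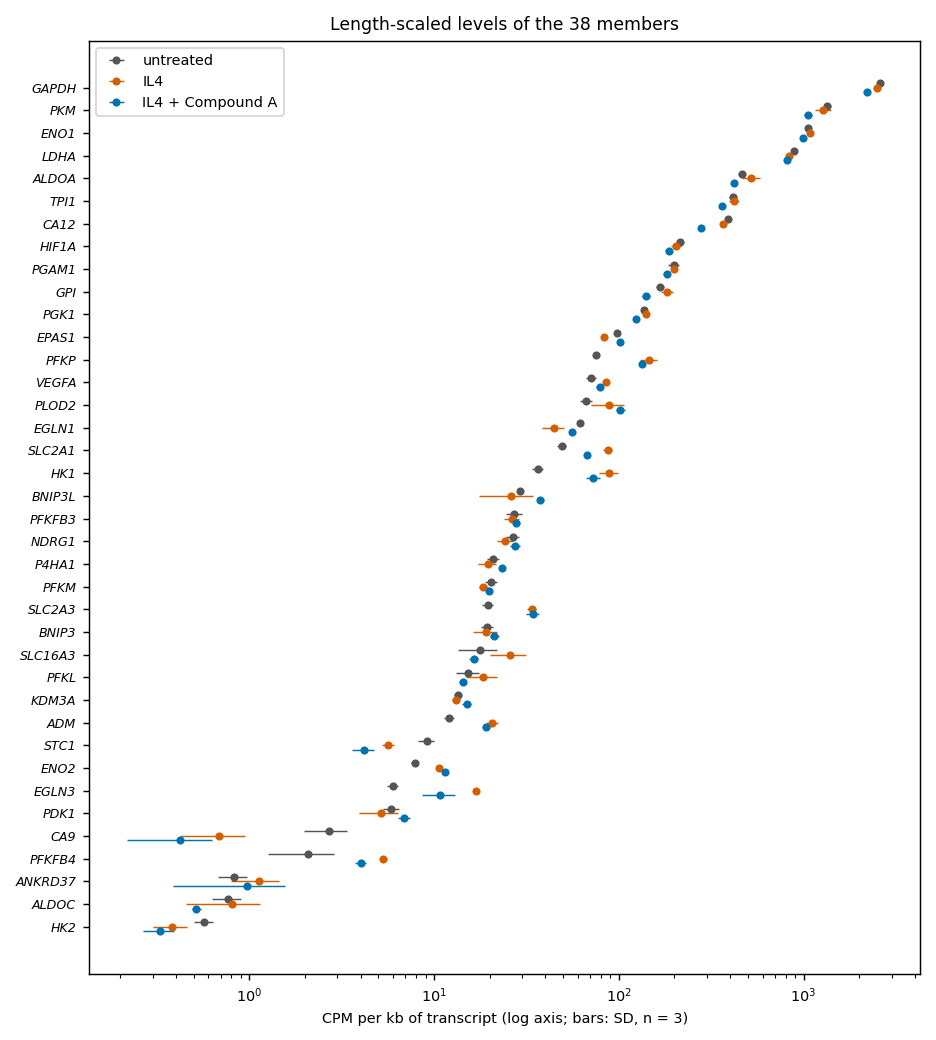
Mean length-scaled level of each of the 38 members (CPM per kb, log axis; bars are the SD of 3 libraries) in untreated cells, with IL4 and with IL4 and Compound A, ordered by the level in untreated cells. The order runs from GAPDH at 2595 to HK2 at 0.57 CPM per kb in untreated cells, and PFKFB4, EGLN3 and CA9 lie farthest from their untreated level with IL4.

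The first comparison asked what IL4 alone did. Both glucose carriers, the hexokinase HK1, the platelet-type phosphofructokinase PFKP and the regulatory enzyme PFKFB4 rose. The last 3 were the only ones of 10 tested genes of upper glycolysis to pass. The other 7 (HK2, GPI, PFKL, PFKM, PFKFB3, ALDOA and ALDOC) passed in neither direction. Of the lower enzymes TPI1, GAPDH, PGK1, PGAM1, ENO1 and PKM passed in neither direction. Hypoxia-induced genes went both ways, with the prolyl hydroxylase EGLN3 and the peptide hormone ADM higher and the carbonic anhydrase CA9 and the glycoprotein hormone STC1 lower. Of the 37 tested members 11 rose and 4 fell at an adjusted p of 0.05 or less (edgeR quasi-likelihood test, Benjamini-Hochberg over all genes tested), where 22.9% of all tested genes passed, 11.2% higher and 11.6% lower. The groups' libraries did not overlap for 15 members, against 33.5% of all tested genes. The median log2 change of the members was 0.01, and that of all tested genes was -0.02.

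Glucose carriers came first in the pathway. SLC2A1, the basal carrier GLUT1 (chr1:42925375-42959176, minus strand, hg38 with GENCODE 29 as for all genes here), was at 192, 175 and 175 CPM in untreated cells, 341, 311 and 307 with IL4, 255, 245 and 244 with Compound A, 319, 302 and 290 with control siRNA and 335, 310 and 315 with ALOX15 siRNA. All 12 IL4-treated libraries lay above the untreated ones, and the Compound A libraries lay between the untreated and the other treated ones. The rise with IL4 was 0.82 on the log2 scale (SE 0.06), 1.77-fold, with an adjusted p of 2.1e-09. SLC2A3, the high-affinity carrier GLUT3, was at 70.5, 77.9 and 81.1 CPM in untreated cells, 133, 140 and 124 with IL4, 147, 128 and 128 with Compound A, 124, 127 and 120 with control siRNA and 99.5, 105 and 88.7 with ALOX15 siRNA. Untreated libraries were again lowest, and the ALOX15 siRNA libraries lay between them and the other treated libraries. The rise with IL4 was 0.79 (SE 0.08, adjusted p 1.8e-07).

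Hexokinase and phosphofructokinase are the committing steps. HK1 (chr10:69269984-69401884, plus strand), which phosphorylates glucose, was at 151, 133 and 134 CPM in untreated cells, 377, 343 and 297 with IL4, 305, 260 and 269 with Compound A, 308, 302 and 286 with control siRNA and 322, 314 and 312 with ALOX15 siRNA. No treated library came near the untreated level. HK1 rose 2.42-fold with IL4 (log2 1.28, SE 0.08, adjusted p 1.6e-10). HK2, the hexokinase isoform induced in many tumours and by HIF, was at 3.05 to 3.74 CPM in untreated cells. In the IL4-treated libraries of all groups HK2 was at 1.49 to 2.74 CPM, below every untreated library. Its log2 difference with IL4 was -0.55 (SE 0.24, adjusted p 0.10), on counts of 12 to 34 per library over all groups.

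PFKP (chr10:3066333-3137712, plus strand) was at 208, 197 and 204 CPM in untreated cells, 441, 378 and 366 with IL4, 357, 357 and 377 with Compound A, 366, 385 and 339 with control siRNA and 396, 381 and 376 with ALOX15 siRNA. All treated libraries lay above all untreated ones and the treated groups overlapped. PFKP rose 1.95-fold with IL4 (log2 0.96, SE 0.07, adjusted p 8.4e-10), while the log2 differences of the liver and muscle isoforms PFKL and PFKM were 0.25 (SE 0.12) and -0.14 (SE 0.07) and did not pass. PFKFB4 (chr3:48517684-48562015, minus strand), which makes and breaks down the activator fructose 2,6-bisphosphate and is a HIF target, was at 2.15, 2.98 and 4.63 CPM in untreated cells, 8.46, 8.65 and 7.97 with IL4 and 6.35, 6.69 and 5.89 with Compound A. With control siRNA it was at 8.68, 11.9 and 11.6 CPM and with ALOX15 siRNA at 12.8, 13.0 and 14.1 CPM, the highest of any group. It rose 2.69-fold with IL4 (log2 1.43, SE 0.21, adjusted p 3.0e-05), whereas PFKFB3, its more abundant relative, lay between 98.3 and 126 CPM in every library and differed by -0.05 (SE 0.08).

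Among lower enzymes only ENO2, the neuronal enolase isoform, rose (log2 0.43, SE 0.11, adjusted p 0.0074), from a mean of 19.0 to 25.6 CPM, and made up 0.967% of the enolase message measured (ENO1 and ENO2, per kilobase) with IL4. The log2 differences of the other 6 were between -0.08 (PKM) and 0.04 (PGK1), with SEs of 0.04 to 0.06. LDHA, which reduces pyruvate to lactate, was at 1722, 1681 and 1621 CPM in untreated cells, 1576, 1599 and 1542 with IL4, 1599, 1498 and 1517 with Compound A, 1624, 1569 and 1610 with control siRNA and 1733, 1740 and 1680 with ALOX15 siRNA. The untreated and IL4 libraries did not overlap, yet the difference of -0.09 (SE 0.04) had an adjusted p of 0.13. SLC16A3, the lactate exporter MCT4, was at 46.2, 31.0 and 31.4 CPM in untreated cells, 66.4, 47.3 and 44.9 with IL4, 35.6, 31.7 and 33.1 with Compound A, 45.3, 53.6 and 47.2 with control siRNA and 46.8, 50.4 and 48.7 with ALOX15 siRNA. The untreated and IL4 groups overlapped through untreated replicate 1 and IL4 replicate 1 was the highest library. Its rise with IL4 of 0.53 (SE 0.15, adjusted p 0.016) was 0.32 with an adjusted p of 0.067 without IL4 replicate 1, and the adjusted p was 0.072 and 0.058 without untreated replicate 2 or 3. PDK1, the kinase that shuts pyruvate out of mitochondria and a classical HIF target, differed by -0.17 (SE 0.18, adjusted p 0.52).

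CA9 (chr9:35673856-35681159, plus strand), the membrane carbonic anhydrase used as a marker of hypoxia, went the other way. It was at 5.56, 3.31 and 4.18 CPM in untreated cells, 1.5, 0.655 and 1.18 with IL4, 1.06, 0.531 and 0.453 with Compound A, 1.30, 0.775 and 0.999 with control siRNA and 1.5, 1.89 and 1.55 with ALOX15 siRNA. Every IL4-treated library lay below every untreated one. CA9 fell by 1.98 on the log2 scale (SE 0.32, 3.93-fold lower, adjusted p 0.00010), from a low level. The related CA12, at 749 to 1094 CPM over all libraries, differed by -0.09 (SE 0.05, adjusted p 0.16).

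Oxygen-sensing genes split by hydroxylase. EGLN3 (chr14:33924231-34462774, minus strand), a prolyl hydroxylase that HIF itself induces, was at 11.4, 10.2 and 11.7 CPM in untreated cells, 32.6, 30.9 and 30.2 with IL4, 24.7, 17.4 and 18.1 with Compound A, 28.9, 30.5 and 24.4 with control siRNA and 34.3, 31.7 and 31.8 with ALOX15 siRNA. It rose 2.82-fold with IL4 (log2 1.49, SE 0.13, adjusted p 2.0e-08), with no overlap. EGLN1, the hydroxylase that sets HIF levels in most cells, was at 436, 442 and 440 CPM in untreated cells, 268, 342 and 341 with IL4, 384, 395 and 403 with Compound A, 341, 302 and 369 with control siRNA and 276, 300 and 291 with ALOX15 siRNA. The untreated libraries were the highest of all 15 and Compound A libraries came next. EGLN1 fell by 0.47 (SE 0.08, adjusted p 0.00019) with IL4, and by 0.36 (adjusted p 1.1e-05) without IL4 replicate 1.

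The alpha subunits differed little. HIF1A was at 789, 857 and 873 CPM in untreated cells, 742, 820 and 843 with IL4, 768, 715 and 710 with Compound A, 845, 783 and 858 with control siRNA and 786, 809 and 812 with ALOX15 siRNA. The untreated and IL4 groups overlapped, while all 3 Compound A libraries lay below every untreated, control siRNA and ALOX15 siRNA library. The difference with IL4 was -0.07 (SE 0.06, adjusted p 0.43), or 0.12 (adjusted p 0.088) with GC correction. EPAS1, the HIF2 alpha subunit, was at 501, 514 and 502 CPM in untreated cells, 426, 429 and 434 with IL4, 503, 541 and 533 with Compound A, 443, 456 and 442 with control siRNA and 519, 509 and 492 with ALOX15 siRNA. The IL4 and control siRNA groups formed the low set. EPAS1 fell by 0.24 with IL4 (SE 0.05, adjusted p 0.00081).

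HIF targets outside glycolysis had 3 members up and 1 down of 9 tested. ADM, the vasodilator peptide adrenomedullin, was at 24.0, 21.3 and 22.7 CPM in untreated cells, 42.2, 37 and 37.3 with IL4, 34.1, 36.1 and 37.9 with Compound A, 39.1, 39.4 and 36.2 with control siRNA and 38.9, 36.8 and 40.5 with ALOX15 siRNA. Every treated library was above every untreated one, and ADM rose by 0.77 (SE 0.09, adjusted p 1.2e-06). PLOD2, the lysyl hydroxylase of collagen, was at 228, 263 and 247 CPM in untreated cells, 254, 351 and 382 with IL4, 368, 402 and 362 with Compound A, 370, 345 and 381 with control siRNA and 394, 405 and 412 with ALOX15 siRNA. IL4 replicate 1 alone fell among the untreated libraries, and the rise of 0.42 (SE 0.10, adjusted p 0.0075) was 0.58 (adjusted p 1.3e-09) without it. VEGFA, the vascular growth factor, rose by 0.26 (SE 0.07, adjusted p 0.0064). STC1, stanniocalcin 1, was at 35.7, 31.8 and 38.9 CPM in untreated cells, 23.7, 21.9 and 20.4 with IL4, 17.9, 13.6 and 16.9 with Compound A, 19.8, 20.8 and 19.0 with control siRNA and 28.6, 28.7 and 31.3 with ALOX15 siRNA. It fell by 0.68 (SE 0.10, adjusted p 5.8e-05), and the untreated libraries stood above all others. The differences of the remaining 5, the mitophagy genes BNIP3 and BNIP3L, NDRG1, the collagen prolyl hydroxylase P4HA1 and the histone demethylase KDM3A, were between -0.17 and -0.03 and none passed.

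Without IL4 replicate 1 the counts with IL4 were 10 higher and 6 lower, as SLC16A3 was lost and CA12 and PKM were gained. With GC correction all 11 and all 4 remained, PGK1 was added to the higher ones, and CA12, GAPDH, PFKFB3, PFKM and PKM to the lower ones, giving 12 and 9. Fitted on the IL4 and untreated libraries alone, VEGFA (adjusted p 0.053), PLOD2 (0.061) and SLC16A3 (0.094) did not pass.

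IL4 with control siRNA was compared with the same untreated libraries, so this is not an independent repeat of the comparison above. The labels give no siRNA for the untreated cells, so IL4 and control siRNA cannot be told apart here. There 9 members rose and 5 fell, where 19.3% of all genes passed (9.93% higher, 9.36% lower), and 18 members did not overlap, against 36.9% of all genes. SLC2A1 rose by 0.75 (SE 0.06), SLC2A3 by 0.70 (SE 0.08), HK1 by 1.09 (SE 0.08), PFKP by 0.84 (SE 0.07), PFKFB4 by 1.79 (SE 0.20) and EGLN3 by 1.33 (SE 0.13). ADM rose by 0.75, PLOD2 by 0.57 and VEGFA by 0.22, whereas ENO2 and SLC16A3 had differences of 0.27 and 0.41 with adjusted p of 0.10 and 0.068. CA9 fell by 2.08 (SE 0.33), STC1 by 0.83, EGLN1 by 0.38, EPAS1 by 0.18 and CA12 by 0.21. This comparison holds none of the IL4-only libraries. Without IL4 replicate 1 in the shared fit 10 rose and 7 fell, and with GC correction 10 and 10, as SLC16A3 joined the higher ones and GAPDH, HK2, PFKM, PKM and TPI1 the lower ones. EPAS1 did not pass without untreated replicate 2 or control siRNA replicate 1 or 3 (adjusted p 0.074, 0.069 and 0.060), nor VEGFA without untreated replicate 2 or control siRNA replicate 2 (0.099 and 0.11).

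**Figure D3:**
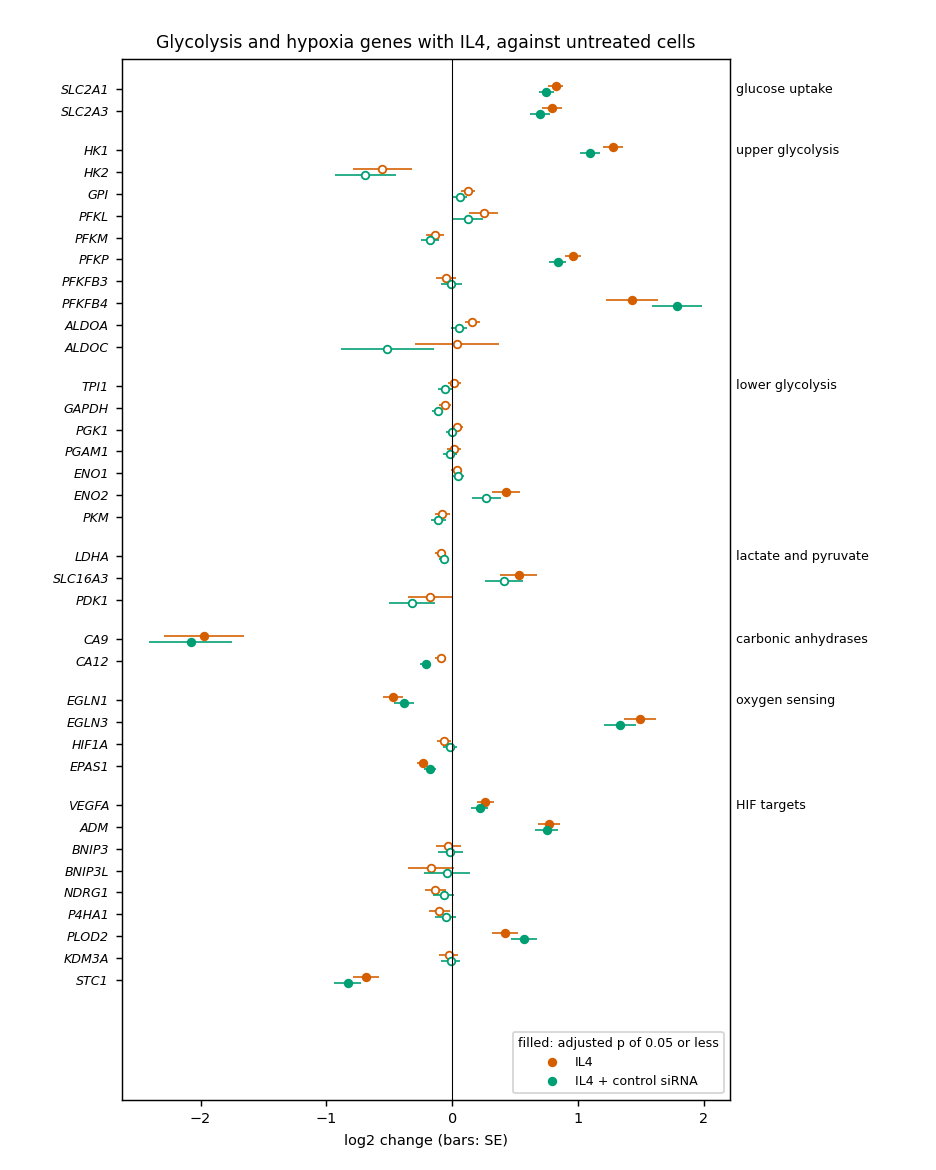
Log2 change of the 37 tested members with IL4 and with IL4 and control siRNA, each against the same 3 untreated libraries, grouped by role (bars are SEs, filled points passed at an adjusted p of 0.05 or less). SLC2A1, SLC2A3, HK1, PFKP, PFKFB4 and EGLN3 are filled and above 0.5 in both, CA9 lies at -1.98 and -2.08, and the lower glycolytic enzymes other than ENO2 lie between -0.11 and 0.05.

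Control siRNA was also compared with IL4 alone. Since any mock treatment of the IL4 group is not given, the part of the siRNA procedure that this covers is not known. No member passed (edgeR quasi-likelihood test, 0 of 37, where 0.0% of all genes passed), 2 had an unadjusted p of 0.05 or less (HK1 and CA12, where 4.91% of all genes did), and DESeq2 also passed 0 members. The count was 0 without IL4 replicate 1 and with GC correction as well. Libraries of the groups did not overlap for 4 members, against 8.6% of all genes.

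Compound A with IL4 was compared with IL4 alone. Much of the glycolytic pathway was lower with the compound, by modest amounts: 13 members fell and 3 rose, where 14.4% of all genes passed, 8.07% lower and 6.35% higher. The 13 were SLC2A1, HK1, GPI, PFKL, ALDOA, TPI1, GAPDH, PGK1, PKM, SLC16A3, CA12, EGLN3 and STC1, and the 3 were EGLN1, EPAS1 and P4HA1. Their log2 differences were between -0.66 and 0.31. The median of the members was -0.13, and 22 of them did not overlap between the groups, against 31.9% of all genes.

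By role, SLC2A1 fell by 0.37 (SE 0.06, 1.29-fold lower, adjusted p 0.00051), and SLC2A3 differed by 0.02 (SE 0.08). In the upper pathway HK1 fell by 0.29 (SE 0.08), the isomerase GPI by 0.38 (SE 0.06, adjusted p 0.00035), PFKL by 0.36 (SE 0.12) and the aldolase ALDOA by 0.32 (SE 0.06, adjusted p 0.0027), while PFKP differed by -0.12 (SE 0.07, adjusted p 0.21) and PFKFB4 by -0.40 (SE 0.19, adjusted p 0.15). GPI averaged 765 ± 56.2 CPM (SD, n = 3) with IL4 and 590 ± 30.1 with Compound A, below its 702 ± 35.6 in untreated cells. In the lower pathway TPI1 fell by 0.21, GAPDH by 0.18, PGK1 by 0.19 and PKM by 0.27 (SEs 0.04 to 0.06), and PGAM1, ENO1 and LDHA differed by -0.14, -0.12 and -0.03 without passing. SLC16A3 fell by 0.66 (SE 0.15, adjusted p 0.0086), to levels that overlap those of untreated cells.

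Summed over the 7 lower enzymes and LDHA, levels were 11430 to 12242 CPM in untreated cells, 10981 to 12067 with IL4, 9944 to 10465 with Compound A, 10900 to 11471 with control siRNA and 11231 to 11829 with ALOX15 siRNA. All 3 Compound A libraries were below the other 12. The sum over the 10 epithelial markers was likewise 31309 to 32971 CPM with Compound A and 33765 CPM or more in the other 12 libraries. Of these 10 markers 5 fell with Compound A against IL4, where 8.07% of all tested genes fell. The difference of GAPDH, the largest member of the sum over lower enzymes, was -0.06 with GC correction and -0.18 without. With 3 libraries against 3 an exact permutation test cannot give a p below 0.1.

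Among oxygen sensing and HIF targets, EGLN3 fell by 0.63 (SE 0.12, adjusted p 0.0017) with Compound A, EGLN1 rose by 0.31 (SE 0.08, adjusted p 0.013) and EPAS1 rose by 0.29 (SE 0.05, adjusted p 0.00044). CA12 fell by 0.39 (SE 0.05, adjusted p 2.8e-05), from 1008 ± 38.6 to 768 ± 27.0 CPM, below all untreated libraries. STC1 fell by 0.45 (SE 0.12, adjusted p 0.013), further from the untreated level. P4HA1 rose by 0.25 (SE 0.08, adjusted p 0.044), and HIF1A differed by -0.13 (SE 0.06, adjusted p 0.12). CA9 differed by -0.67 with an SE of 0.44 (adjusted p 0.32), on counts of 3 to 62 per library over all groups.

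These calls depended on the libraries in part. Without IL4 replicate 1, 13 fell and 3 rose: PFKL (-0.19, adjusted p 0.24) and P4HA1 (0.17, adjusted p 0.18) were lost and HIF1A (-0.19, adjusted p 0.015) and BNIP3L (0.29, adjusted p 0.024) gained. With GC correction 12 fell and 4 rose: GAPDH (-0.06, adjusted p 0.29), PFKL (-0.12, adjusted p 0.27) and P4HA1 (0.15, adjusted p 0.083) were lost, HIF1A (-0.30, adjusted p 9.8e-05), BNIP3L (0.42) and PFKFB3 (0.19) were gained, and SLC16A3 and ALDOA were at -0.40 and -0.14. The count of lower members was 7 without Compound A replicate 2, when HK1, PFKL, TPI1, GAPDH, SLC16A3 and STC1 did not pass (adjusted p 0.050 to 0.15), and 10 without Compound A replicate 3, when HK1, PFKL and TPI1 did not (adjusted p 0.051 to 0.13). PFKL passed in 11 and P4HA1 in 7 of the 25 alternatives in all. EGLN1 (adjusted p 0.053 and 0.055) and P4HA1 were lost without either, which left 1 member higher, and 8 members were higher without IL4 replicate 3. Fitted on these groups alone, 5 fell (SLC2A1, GPI, SLC16A3, CA12 and EGLN3) and 1 rose (EPAS1).

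A further comparison of Compound A, with control siRNA as the reference, shares the Compound A libraries with the comparison above but none of the IL4-only libraries. The groups also differ by the control siRNA, so the compound and the siRNA cannot be told apart here. Of the 37 members 6 fell (SLC2A1, GPI, PFKFB4, PKM, CA12 and EGLN3) and 1 rose (EPAS1), where 5.28% of all genes passed, 3.42% lower and 1.86% higher. Libraries did not overlap for 24 members, against 30.6% of all genes. SLC2A1 fell by 0.29 (SE 0.06, adjusted p 0.0062), GPI by 0.31 (SE 0.06, adjusted p 0.0037), CA12 by 0.27 (SE 0.05, adjusted p 0.0014), PFKFB4 by 0.76 (SE 0.18, adjusted p 0.019), EGLN3 by 0.47 (SE 0.12, adjusted p 0.026) and PKM by 0.24 (SE 0.06, adjusted p 0.023). EPAS1 rose by 0.23 (SE 0.05, adjusted p 0.0053). HK1, which had fallen against IL4 alone, differed here by -0.10 (SE 0.08, adjusted p 0.49), and SLC16A3 by -0.54 (SE 0.15, adjusted p 0.051).

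The same count was 13 lower and 4 higher without IL4 replicate 1, a library that enters only the shared estimate of spread here, and 9 lower and 4 higher with GC correction. Without replicate 2 or 3 of Compound A it was 3 lower, as it was without replicate 1 or 2 of control siRNA. SLC2A1 was lost without control siRNA replicate 1 (adjusted p 0.054), nor PKM and EGLN3 without that library, without control siRNA replicate 2 or without replicate 2 or 3 of the compound (0.089 to 0.17), and PFKFB4 was lost without any of the Compound A libraries (0.053 to 0.085) and without replicate 2 or 3 of control siRNA (0.097 and 0.074). Leaving out IL4 replicate 3, or control siRNA replicate 1, gave 2 higher. Fitted on these groups alone, 12 fell and 5 rose. Shares of all tested genes under these settings are not given, so whether the moves are particular to the members was not tested.

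The siRNA against ALOX15 was compared with control siRNA. Of the members 2 passed: STC1 rose by 0.58 (SE 0.11, 1.49-fold, adjusted p 0.013) and SLC2A3 fell by 0.34 (SE 0.08, 1.27-fold lower, adjusted p 0.043). That is 1 higher and 1 lower of 37, or 5.41%, where 0.696% of all genes passed (0.313% higher, 0.383% lower). An unadjusted p of 0.05 or less was found for 7 of 37 members, against 8.91% of all genes. Libraries did not overlap for 16 of 37, against 18.7% of all genes. EPAS1 differed by 0.18 (SE 0.05, adjusted p 0.088) and EGLN1 by -0.22 (SE 0.08, adjusted p 0.32). SLC2A1, HK1, PFKP and EGLN3 differed by 0.07 (SE 0.06), 0.08 (SE 0.08), 0.08 (SE 0.07) and 0.22 (SE 0.12), none passing.

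Each call was lost without some libraries. STC1 did not pass without control siRNA replicate 1 or 3 or ALOX15 siRNA replicate 3 (adjusted p 0.088, 0.085 and 0.12). SLC2A3 did not pass without any library of these 2 groups (adjusted p 0.064 to 0.27), without untreated replicate 2 or 3 (0.061 and 0.052) or without Compound A replicate 2 or 3 (0.057 each), and its counts were not whole in 10 libraries. Without IL4 replicate 1, or on these groups alone, 2 rose and 2 fell, as EPAS1 and EGLN1 joined. With GC correction ALDOA joined too, giving 3 and 2.

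**Figure D4:**
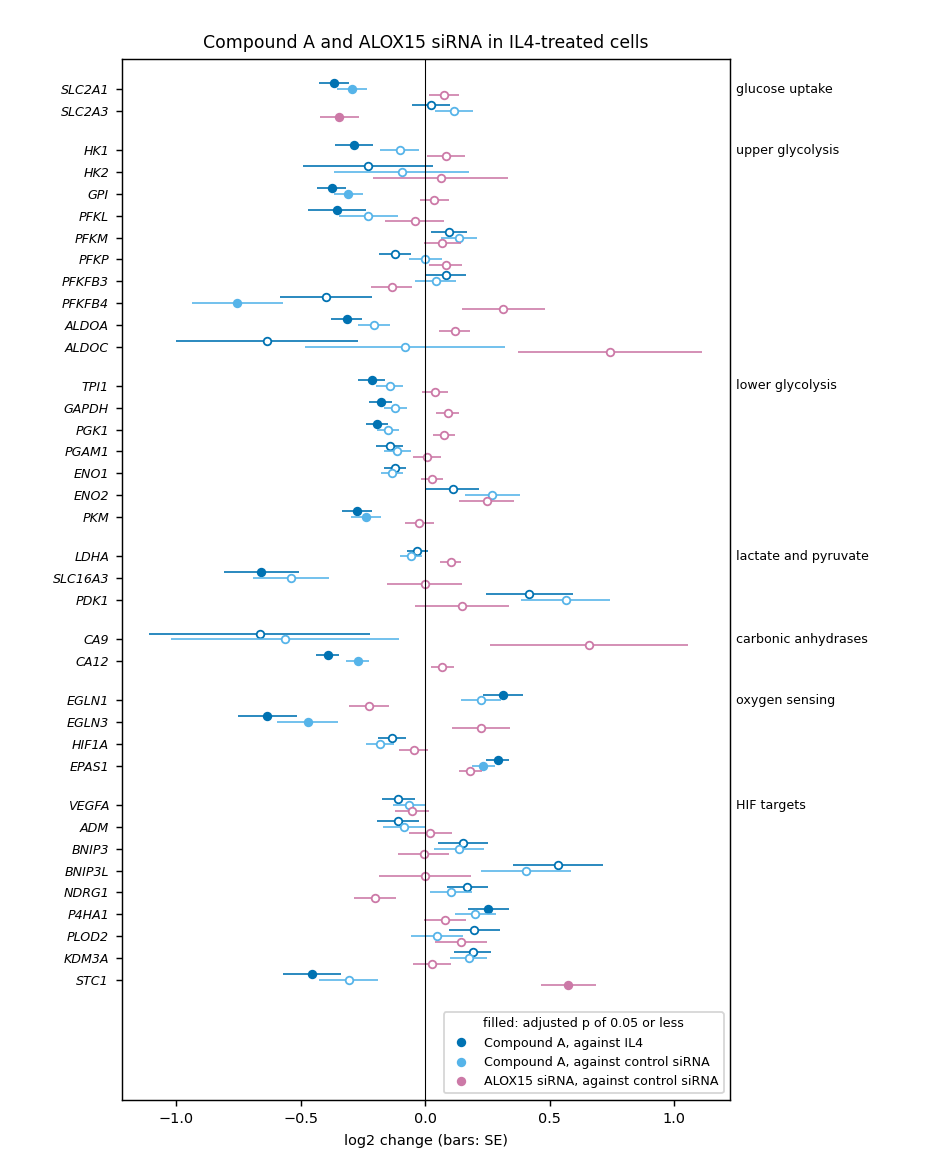
Log2 change of the 37 tested members with Compound A against IL4, with Compound A against control siRNA, and with ALOX15 siRNA against control siRNA, grouped by role (bars are SEs, filled points passed at an adjusted p of 0.05 or less). SLC2A1, GPI, PKM, CA12 and EGLN3 are filled and below 0 in both Compound A comparisons, EPAS1 is filled and above 0 in both, and with the siRNA only STC1 (0.58) and SLC2A3 (-0.34) are filled.

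Whether the compound and the siRNA gave the same change was tested as the difference of the Compound A change (against IL4) and the siRNA change (against control siRNA), which share no library. The difference passed for 9 members, 8 lower and 1 higher, where 5.14% of all genes passed (3.2% lower, 1.94% higher). It was -1.03 for STC1 (SE 0.16, adjusted p 0.00058), -0.86 for EGLN3 (SE 0.17, adjusted p 0.0038), -0.46 for CA12 (SE 0.06, adjusted p 0.00023), -0.44 for SLC2A1 (SE 0.08, adjusted p 0.0035), -0.43 for ALDOA, -0.41 for GPI, -0.27 for GAPDH and PGK1, and 0.54 for EGLN1 (SE 0.11, adjusted p 0.0078). STC1 fell with the compound and rose with the siRNA. For SLC2A3 the difference of 0.37 (SE 0.11) had an adjusted p of 0.054, and for EPAS1, with changes of 0.29 and 0.18, it was 0.11 (SE 0.07, adjusted p 0.37).

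Without IL4 replicate 1 the difference passed for 9 lower and 2 higher members, as HK1 and SLC2A3 were gained, and with GC correction for 12 and 4. Leaving out untreated replicate 1 or IL4 replicate 3 also gave 2 higher. GAPDH was lost without replicate 2 or 3 of Compound A, replicate 3 of control siRNA or replicate 1 or 2 of ALOX15 siRNA (adjusted p 0.051 to 0.065).

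**Figure D5:**
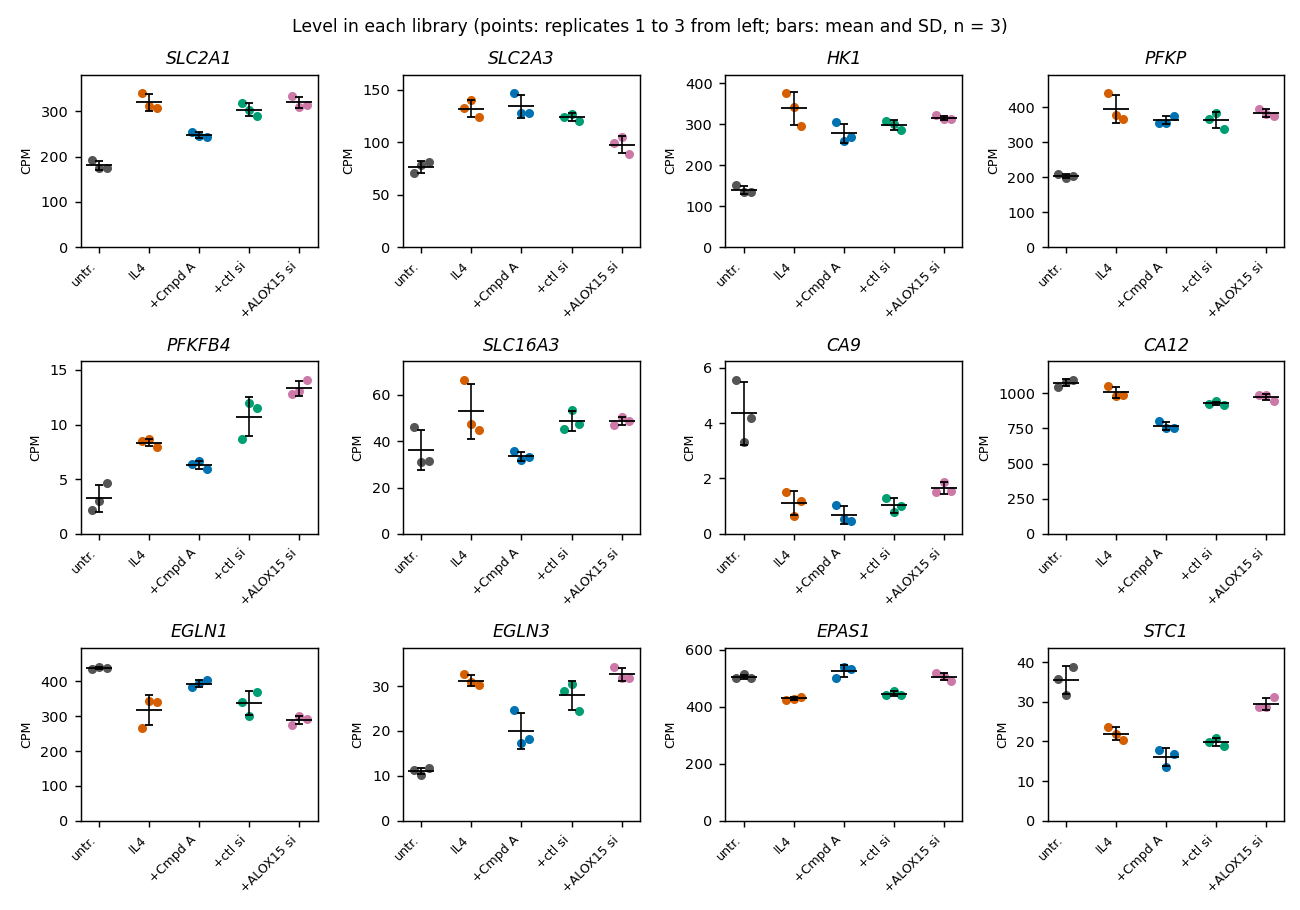
Level of 12 members in each of the 15 libraries (CPM, y axes start at 0; points are replicates 1 to 3 from the left, bars the mean and SD of 3 libraries) by group. In SLC2A1, HK1 and PFKP every IL4-treated library is above the untreated ones, and in CA9 every one is below; Compound A libraries are the lowest in CA12 and STC1.

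Genes that neighbour the members in metabolism were taken from lists chosen by function, also with earlier results of these data known. Of 13 tested genes of hexose uptake and glycolysis that are not members, 3 rose with IL4 and none fell, near the 22.9% of all tested genes that passed: HKDC1, a hexokinase-like enzyme (0.61, SE 0.06), the carrier SLC2A6 (0.53, SE 0.17) and the heart-type lactate dehydrogenase LDHB (0.18, SE 0.04). With Compound A against IL4, HKDC1 fell by 0.24 and SLC2A6 by 0.73, while TIGAR, a fructose bisphosphatase, rose by 0.48 and PFKFB2 by 0.43. Of 29 genes of pyruvate entry and the citric acid cycle, 10 rose and 4 fell with IL4, where 11.2% of all tested genes rose and 11.6% fell, with PDK4, a kinase that inhibits pyruvate dehydrogenase, falling by 1.2 (SE 0.08), from 334 to 146 CPM, OGDH rising by 0.46, and PDHB falling by 0.32. With Compound A 1 rose (the phosphatase PDP2, 0.54) and 6 fell, where 6.35% of all tested genes rose and 8.07% fell, among them citrate synthase CS (-0.26), MPC2 (-0.34) and SUCLG1 (-0.25). PC, the pyruvate carboxylase, and PDK4 fell with ALOX15 siRNA, by 0.56 (SE 0.10) and 0.46 (SE 0.08).

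Of 17 genes of the pentose phosphate branch and glycogen, 2 rose (among them GYS1, 0.46) and 2 fell (RPIA -0.67, PGD -0.17) with IL4, near the 22.9% of all tested genes. With Compound A 2 rose and 4 fell, where 14.4% of all tested genes passed, with PPP1R3B up by 0.65 and TALDO1 and TKT down by 0.29 and 0.27. Of 15 regulators of the HIF subunits 2 passed with IL4, where 22.9% of all tested genes passed. ARNT2, a beta subunit, rose by 0.49 and LIMD1, a scaffold of the hydroxylase complex, fell by 0.34. With Compound A 1 of the 15 passed, where 14.4% of all tested genes did, as LIMD1 rose by 0.26. Of 28 other hypoxia-induced genes 4 rose and 8 fell with IL4, where 11.2% of all tested genes rose and 11.6% fell. Among those that passed were BHLHE40 (0.67), IGFBP3 (-1.09, SE 0.06) and the transferrin receptor TFRC (-0.45). The differences in the list ran from -1.09 to 1.56. With Compound A 4 rose and 3 fell, where 14.4% of all tested genes passed. The 4 that rose, LOXL2 (0.58), WSB1 (0.52), MXI1 (0.71) and ANGPTL4 (0.81), had the smallest p, and the lowest difference in the list was -0.65. With ALOX15 siRNA the lipid droplet gene HILPDA fell by 0.56.

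Of the 9 members with a window that rose with IL4, 5 had a hypoxia-response core in it (SLC2A1, PFKFB4, ENO2, ADM and PLOD2), as had all 3 that fell (CA9, EGLN1 and EPAS1) and 16 of 20 that passed in neither direction. In all 33 windows, 25 (75.8%) had a core, against 48.4% of all windows.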

How the data were processed

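RNA from 15 A549 libraries was sequenced, and the deposited table holds expected counts per gene, which the authors made with RSEM 1.2.15 and Bowtie2 2.1.0 on hg38, per the submitters' processing notes. Filters, gene annotation and strand setting are not given in the sources used here, so reads of HIF1A and its antisense genes cannot be told apart; between 3.63% and 4.19% of values per library were not whole. Counts were rounded and tested with edgeR 4.0.16 (R 4.3.3; TMM scaling, filterByExpr, robust glmQLFit and glmQLFTest) over all 5 groups in 1 fit, which called genes at a Benjamini-Hochberg adjusted p of 0.05 or less over 12795 genes. SEs were taken from the log2 change and its F value, and means ± SD are of CPM over 3 libraries. The common biological coefficient of variation was 0.0731. On simulated data the fit recovered, across the 6 pairwise comparisons, 75 to 93% of genes changed by a log2 of 1 and 52 to 58% of those changed by 0.5. Of the calls on simulated data 2.84 to 6.99% were false, the most for Compound A against IL4. The simulated counts had no GC trend and no library set apart, so these shares do not cover that feature of the data. The difference of the Compound A and siRNA changes was not simulated. Each simulation changed 100 genes by each amount, whereas 22.9% of all tested genes passed with IL4 in the data. Alternatives were DESeq2 1.42.0, RLE and upper-quartile scaling, other filters, unrounded counts, the compared groups alone, a replicate block, a loess correction for GC content (span 0.3) and leaving out each library.

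GC content and length came from GENCODE 29 transcripts matched to RefSeq, and 95.2% of tested genes had a value. The members and lists were chosen with earlier results of these data known. Library values were given for members that passed with an absolute log2 change of 0.5 or more in any comparison and for HIF1A, EPAS1, SLC2A1 and LDHA, and from each other list up to 4 genes of smallest p per comparison were named. Some genes of the other lists are not reported here.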

Additional observations from a re-analysis of the deposited data

How the results depend on the processing

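Of the 63 changes of members that passed, 40 passed under all 25 alternatives, 23 were lost under at least 1, and 0 changed sign. DESeq2, RLE and upper-quartile scaling, other filters and unrounded counts left every count of members within 1.5 times, except 2 rather than 1 higher with ALOX15 siRNA under DESeq2. GC correction moved the lower members with IL4 from 4 to 9, with control siRNA from 5 to 10, the higher ones with Compound A against control siRNA from 1 to 4, those with ALOX15 siRNA to 3 higher and 2 lower, and the higher ones in the difference of both from 1 to 4. Fits on the compared groups alone gave 1 higher and 5 lower with Compound A against IL4, 5 and 12 against control siRNA, and 2 and 2 with ALOX15 siRNA. Each such fit estimates the spread from fewer libraries, and the counts moved down in the first of these comparisons and up in the others. The cause of these moves was not tested, and shares of all tested genes under these settings are not given.

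Leaving out 1 library at a time gave 10 to 14 higher and 4 to 6 lower members with IL4, 8 to 10 and 4 to 7 with control siRNA against untreated, and 1 to 8 and 7 to 13 with Compound A against IL4. It gave 1 to 4 and 3 to 13 with Compound A against control siRNA, 0 to 2 and 0 to 2 with ALOX15 siRNA, 1 to 2 and 7 to 12 for the difference of both, and 0 throughout for control siRNA against IL4.

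Replicate numbers were not taken to pair the libraries, because the labels do not say that a number marks a shared culture or day. Deviations of same-numbered libraries correlated between -0.13 and 0.29, over 0.1 in 8 of 30 pairs. Of 60 best matches, each among 3 candidates, 31 were of the same number, more than an even spread over the candidates gives. Whether the numbers mark pairs was not tested. With the replicate block, 12 higher and 4 lower members passed with IL4, 5 and 14 with Compound A against IL4, 10 lower with Compound A against control siRNA and 3 higher in the difference of both. The replicate block with GC correction gave 10 lower with IL4, 10 lower with control siRNA against untreated, 5 higher with Compound A against IL4, 4 higher against control siRNA, 3 higher and 2 lower with ALOX15 siRNA, and 4 higher and 13 lower for the difference. Precision was lowest for CA9, ALDOC and HK2, whose SEs reached 0.60, 0.52 and 0.38 in the difference of both; all 3 are members of few counts, and the part of depth was not tested.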

Other observations

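Isoform shares per kilobase differed between untreated and IL4-treated cells for several members. PFKP made up 67.8% ± 1.59 (SD, n = 3) of phosphofructokinase message in untreated cells and 79.8% ± 0.159 with IL4, and 79.7%, 79.4% and 80.1% with Compound A, control siRNA and ALOX15 siRNA. EGLN3 made up 8.81% ± 0.580 of the message of EGLN1 and EGLN3 in untreated cells, 27.6% ± 3.65 with IL4, 16.3% ± 3.0 with Compound A, 24.2% ± 3.88 with control siRNA and 30.2% ± 1.84 with ALOX15 siRNA. PFKFB4 made up 7.19% ± 3.11 of PFKFB3 and PFKFB4 message in untreated cells, 16.8% ± 1.10 with IL4, 12.6% ± 0.964 with Compound A, 20.2% ± 3.89 with control siRNA and 25.5% ± 1.19 with ALOX15 siRNA. SLC2A1 made up 71.5%, 72.1%, 66.4%, 72.3% and 77.8% of the message of the carriers SLC2A1 and SLC2A3 in the same order of groups. The SDs of the last were between 0.807 and 2.50. These shares carry no test.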
